A study of Mus musculus with 3 samples.

Results

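The genes of the constitutive proteasome were examined in inguinal lymph nodes of mice given 1 of 2 monohydroxylated vitamin D3 derivatives or vehicle. Members were the rows of the gene table whose symbol begins with Psma, Psmb, Psmc, Psmd, Psme, Psmf or Psmg and a digit, without the immune subunits Psmb8, Psmb9 and Psmb10 and without pseudogenes. This rule gave 48 rows with 47 symbols, of 46951 rows in all. It used names and no measured value. Psmd5 has 2 rows, of which the second held 0, 7 and 2 reads in the vehicle, 20(OH)D3 and 25(OH)D3 libraries. Psmc3ip, a meiotic recombination factor, carries a matching name and is no proteasome subunit. The label constitutive does not suit every member, since Psme1 and Psme2 encode an activator induced by interferon gamma, Psma8 is a subunit of the testis and Psmb11 one of the thymus cortex.

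Bulk RNA was sequenced from male C57BL/6j mice, with 1 library in each of 3 groups. In every group the abdominal skin had been painted with DNFB (dinitrofluorobenzene), a contact sensitizer, 3 days before injections into the peritoneum began. The vehicle group received EtOH (ethanol). Mice of the second group were given 20(OH)D3 and those of the third 25(OH)D3, each at a daily dose of 4 µg per kg. The compounds differ in the side-chain carbon that bears the hydroxyl group. The sample labels give 4 daily injections with collection 24 hours after the last, whereas the series description gives 1 week. The sources used here give neither the age of the mice nor whether a library pooled animals. With 1 library per group no difference has a replicate check and none was tested, so every value describes these libraries and not the treatments.

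The proteasome degrades proteins tagged with ubiquitin. Its 20S core is a barrel of stacked rings, with outer rings of α subunits that gate the entrance and inner rings of β subunits, 3 of which (Psmb5, Psmb6 and Psmb7) carry the cutting sites. The 19S cap recognizes, unfolds and feeds the substrate, with a ring of ATPases (Psmc genes) and a set of non-ATPase subunits (Psmd genes). In lymphoid tissue the immune subunits replace the cutting subunits in many barrels, and the peptides made are presented on MHC class I.

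Recovered reads numbered 8226431 (vehicle), 7522550 (20(OH)D3) and 7991748 (25(OH)D3). Of these the members took 28188, 28605 and 27589, or 0.343%, 0.380% and 0.345%. All 5 B cell and all 6 T cell markers of short lists were above 0 in every library. Summed levels of these lists, in the order vehicle, 20(OH)D3 and 25(OH)D3, were 1584, 1522 and 1735 FPKM for B cells and 754, 549 and 833 FPKM for T cells. They were 527, 951 and 559 FPKM for 5 macrophage markers. The 6 adipocyte markers, all above 0, summed to 1706, 7955 and 3396 FPKM, so the 20(OH)D3 library held the most fat message. The part of this makeup in any difference below was not tested. In bulk tissue, fewer cells of a type and less RNA per cell cannot be told apart.

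Core subunits were the most abundant structural genes. Levels here are FPKM, which set the fragments of a gene against its length and the sequencing depth. In the vehicle library the 14 core subunits ran from 43.1 FPKM (Psma5) to 146 FPKM (Psmb1), with a median of 90.6 FPKM. The 6 ATPases ran from 38.9 FPKM (Psmc2) to 67.6 FPKM (Psmc3), with a median of 52.1 FPKM. The 11 non-ATPase subunits had a median of 47.3 FPKM, from Psmd1 at 30.6 FPKM, in a row shared with Armc9 and Gm21972, to Psmd8 at 107 FPKM. Cap messages thus lay mostly below core messages. Assembly factors were scarcer. The 3 chaperones of the cap (Psmd5, Psmd9 and Psmd10) lay between 7.25 and 19.7 FPKM, and the 4 chaperones of the core (Psmg1 to Psmg4) between 12.9 and 32.1 FPKM. The interferon-induced activator genes Psme1 (255, 233 and 249 FPKM in the vehicle, 20(OH)D3 and 25(OH)D3 libraries) and Psme2 (228, 244 and 239 FPKM) were the most abundant members in the vehicle and 25(OH)D3 libraries, and Psmb3 (251 FPKM) was in the 20(OH)D3 library. Psma8 had 1, 0 and 3 reads and Psmb11 0, 2 and 0 reads, so neither was detectable beyond the limit of 3 reads that a count of 0 allows. These rows and the second Psmd5 row fell below the filter, a mean of at least 1 FPKM, which 45 member rows and 14032 rows in all passed.

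**Figure D1:**
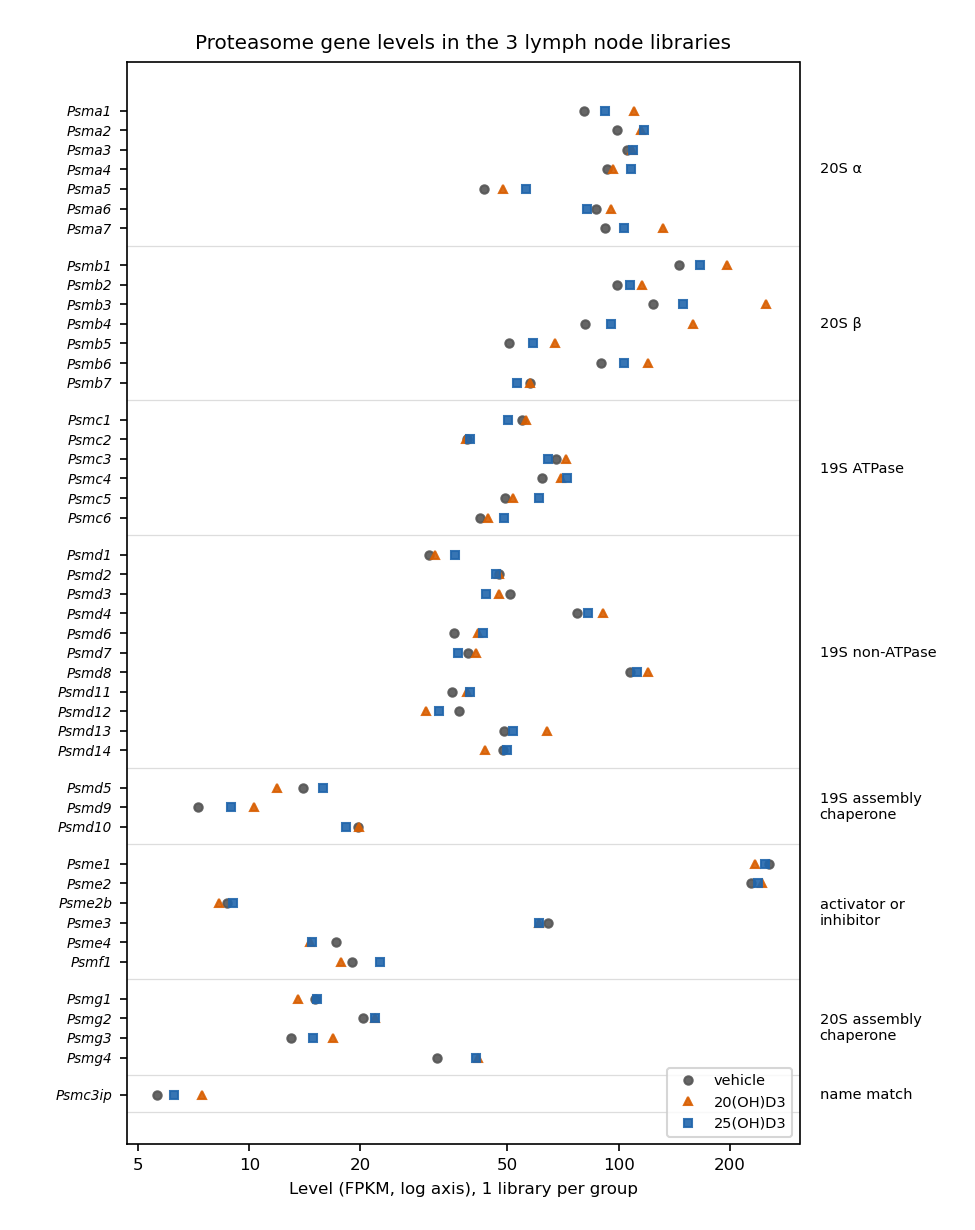
Level of each of the 45 member rows past the filter (FPKM, log axis) in the vehicle (circles), 20(OH)D3 (triangles) and 25(OH)D3 (squares) libraries, ordered by role, with 1 library per group and therefore no error bar. Symbols of a gene mostly lie close together, and the widest gaps are those of Psmb3 (124, 251 and 149 FPKM) and Psmb4 (81.0, 159 and 95.3 FPKM).

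The first comparison set 20(OH)D3 against vehicle. As deposited, core subunits, above all those of the β ring, were higher in the 20(OH)D3 library, while cap subunits stood close to vehicle. In TPM, a rescaling of each library to a common total, the median of the α ring lay just below 0 and cap subunits slightly below vehicle. With the trend on transcript length described below taken off, the median log2 ratios of core and cap were 0.05 and 0.01, so most of this split was not kept. Of the 45 member rows 32 had a log2 ratio of (FPKM + 1) above 0, against 49.0% of all rows tested. The members' median log2 ratio was 0.09, against -0.01 over all rows. TPM moved the median of all rows to -0.18 and that of the members to -0.10. This rescaling shifts every ratio by nearly the same step. The offset of members from all rows, 0.10 as deposited and 0.09 in TPM, could therefore hardly change, and its being kept is no support. With the length trend taken off, that offset was -0.026. A step of at least 0.32 on this log2 scale was used to count rows that stood apart. At least this much higher were 12 member rows, or 26.7%, against 21.7% of all rows. At least this much lower were 0 member rows, against 15.2% of all rows. At least 2-fold higher was 1 member row, Psmb3, against 4.42% of all rows. The log2 ratios of the members had an SD of 0.27, and those of all rows one of 0.55. All 45 member rows also passed a mean of 5 FPKM, and the SD over the 9898 rows that did so was 0.53.

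Among the 7 β subunits 6 were above 0 and 5 were higher by at least 0.32, around a median of 0.42 (0.23 in TPM). Psmb3, a structural subunit of the β ring (GRCm38 chromosome 11, 97703399 to 97713500), stood at 124 FPKM in the vehicle, 251 FPKM in the 20(OH)D3 and 149 FPKM in the 25(OH)D3 library, with 677, 1224 and 754 reads. The 20(OH)D3 library was the high one, with a normalized count ratio to vehicle of 2.02 (1.84 to 2.23). Intervals in parentheses are exact 95% intervals that cover counting error only. Psmb4, also structural (chromosome 3, 94884093 to 94886961), stood at 81.0, 159 and 95.3 FPKM, with 668, 1082 and 651 reads. It was again high in the 20(OH)D3 library alone, with a count ratio to vehicle of 1.81 (1.64 to 2.00). As shares of the summed FPKM of the β ring, Psmb3 took 19.1%, 26.0% and 20.4% and Psmb4 12.5%, 16.4% and 13.0%. The ring's messages were therefore less even in the 20(OH)D3 library, where the highest β subunit was 4.36 times the lowest, against 2.90 times in the vehicle and 3.14 times in the 25(OH)D3 library.

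The other structural β subunits differed less from vehicle. Psmb1 (146, 197 and 166 FPKM) had a count ratio of 1.35 (1.247 to 1.46), and Psmb2 (99.2, 115.6 and 108 FPKM) one of 1.17 (1.04 to 1.30). Of the cutting subunits, Psmb5, the chymotrypsin-like one, stood at 50.4, 67.4 and 58.7 FPKM in the vehicle, 20(OH)D3 and 25(OH)D3 libraries. Its count ratio to vehicle was 1.34 (1.15 to 1.56). Its row also carries the microRNA gene Mir686. Psmb6, the caspase-like subunit, stood at 89.3, 119.9 and 103 FPKM, a count ratio of 1.44 (1.28 to 1.62). Psmb7, the trypsin-like subunit, stood at 57.7, 57.6 and 52.9 FPKM, a count ratio of 0.993 (0.875 to 1.13). The cutting subunits thus did not all stand apart from vehicle, and the 20(OH)D3 library exceeded vehicle beyond counting error for Psmb5 and Psmb6 but not for Psmb7.

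Promoter letters are shown for the β subunits that stood furthest from vehicle, Psmb3 and Psmb4, and for the cutting subunits of the same ring for which RefSeq gave a window, Psmb5 and Psmb6. Each is the 250 bases before the annotated start, 5′ to 3′ on the gene's strand, from RefSeq on GRCm38.p6. The windows are chr11:97703184-97703433 (plus strand) for Psmb3, chr3:94886959-94887208 (minus) for Psmb4, chr14:54617996-54618245 (minus) for Psmb5 and chr11:70525107-70525356 (plus) for Psmb6. Capitals mark 2 motifs searched on both strands. These are TGACNNNGC, the core antioxidant response element bound by the proteasome regulator NFE2L1, and CCAAT, the NF-Y box, and matches of one did not overlap the other in these windows.
Psmb3: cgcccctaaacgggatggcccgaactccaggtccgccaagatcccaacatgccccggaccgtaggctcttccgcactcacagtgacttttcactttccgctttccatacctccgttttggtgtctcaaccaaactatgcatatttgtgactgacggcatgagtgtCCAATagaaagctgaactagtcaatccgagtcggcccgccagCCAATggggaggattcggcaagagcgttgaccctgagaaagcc
Psmb4: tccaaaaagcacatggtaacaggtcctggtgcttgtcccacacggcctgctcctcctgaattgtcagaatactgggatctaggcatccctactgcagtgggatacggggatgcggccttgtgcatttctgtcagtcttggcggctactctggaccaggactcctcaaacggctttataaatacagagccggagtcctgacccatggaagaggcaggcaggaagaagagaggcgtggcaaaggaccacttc
Psmb5: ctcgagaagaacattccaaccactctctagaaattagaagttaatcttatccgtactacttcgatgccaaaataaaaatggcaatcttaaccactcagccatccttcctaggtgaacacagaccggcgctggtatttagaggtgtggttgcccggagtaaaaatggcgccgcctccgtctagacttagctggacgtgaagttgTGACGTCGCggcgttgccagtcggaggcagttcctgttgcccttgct
Psmb6: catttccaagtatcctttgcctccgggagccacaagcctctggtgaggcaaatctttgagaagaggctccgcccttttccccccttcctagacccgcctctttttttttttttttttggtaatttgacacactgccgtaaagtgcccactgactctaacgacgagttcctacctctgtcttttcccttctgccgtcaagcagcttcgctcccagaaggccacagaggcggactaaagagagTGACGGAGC
The response element core stands in Psmb5, beginning 47 bases before the start, and in Psmb6, beginning 9 bases before it. Psmb3 holds 2 CCAAT boxes and no response element core, and Psmb4 holds neither. Over the 42 windows of 39 member symbols matched, 5 held TGACNNNGC (11.9%, against 10.2% of 32851 promoters) and 14 held CCAAT (33.3%, against 33.8%). By role, CCAAT stood in 5 of 8 windows of α and 1 of 4 of β subunits. It stood in 2 of 6 windows of ATPases, 2 of 9 of non-ATPase subunits and 1 of 7 of activators and inhibitor. For assembly chaperones it was 0 of 3 for the core and 1 of 3 for the cap. A match is a stretch of letters and not a shown binding site.

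Among the 7 α subunits all were above 0 and 2 were higher by at least 0.32, around a median of 0.17 that became -0.02 in TPM. Psma7 (92.0, 132 and 103 FPKM; 609, 754 and 572 reads) was the furthest from vehicle, with a count ratio of 1.39 (1.24 to 1.54). Psma1 (80.3, 110.1 and 91.7 FPKM) followed at 1.36 (1.23 to 1.50). By FPKM the nearest to vehicle was Psma3 (105.6, 108.8 and 109.3 FPKM), with a count ratio of 1.10 (0.998 to 1.22), and by counts it was Psma4 at 1.04 (0.945 to 1.15). Psma2 lay between the ends, at 1.16 (1.05 to 1.29). Summed over the 14 core genes the count ratio was 1.32 (1.28 to 1.35), and 13 of them lay above 0 as deposited and 9 in TPM.

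Cap subunits stood near vehicle. The 6 ATPases centred on a log2 ratio of 0.07 with none apart by 0.32. Of these 5 were above 0 as deposited and 0 in TPM. Their counts summed to a ratio of 1.04 (0.996 to 1.09). The 11 non-ATPase subunits had a median of 0.07, with 7 above 0 (3 in TPM), and a summed count ratio of 1.07 (1.04 to 1.10). Psmd13 stood apart from this set at 49.0, 64.2 and 51.8 FPKM in the vehicle, 20(OH)D3 and 25(OH)D3 libraries, with 513, 618 and 508 reads. Its count ratio to vehicle was 1.35 (1.20 to 1.52). Psmd12 was lowest, at 37.0, 30.1 and 32.5 FPKM, a count ratio of 0.870 (0.763 to 0.992). Psmd4, a ubiquitin receptor, had a ratio of 1.15 (1.05 to 1.27), and Psmd14, the deubiquitinase of the cap, one of 0.954 (0.840 to 1.08).

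Regulators of the barrel did not share the shift of the core. The 6 activator and inhibitor genes centred on a log2 ratio of -0.09 (-0.28 in TPM), and 1 was above 0. Psme4, which encodes the activator PA200, stood at 17.2, 14.6 and 14.8 FPKM, with 704, 546 and 587 reads. It was highest in the vehicle library, with a count ratio of 0.868 (0.775 to 0.972). Psme2 had a count ratio of 1.22 (1.13 to 1.32), although its FPKM ratio was only 1.07. Psme2b, a near copy of Psme2 in a row shared with 9930111J21Rik1, had a count ratio of 0.697 (0.536 to 0.901) at nearly equal FPKM (8.69 and 8.30), and reads of the copies can be exchanged. Psmf1, the inhibitor PI31, had a ratio of 1.01 (0.862 to 1.19). Of the assembly factors, Psmd9 (7.25, 10.3 and 8.93 FPKM) had a log2 ratio of 0.46, and its count ratio of 1.255 (0.993 to 1.59) had an interval that held 1. Psmg3 (12.9, 16.8 and 14.9 FPKM, in a row shared with Gm26938 and Tmem184a) had a count ratio of 1.36 (1.01 to 1.83). Psmg4 (32.1, 41.6 and 41.2 FPKM) had one of 1.30 (0.985 to 1.71). These ratios rested on 85 to 157 reads. Psmd5 was lower by FPKM (14.0 and 11.9), with a count ratio whose interval held 1 (0.924, 0.781 to 1.09).

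**Figure D2:**
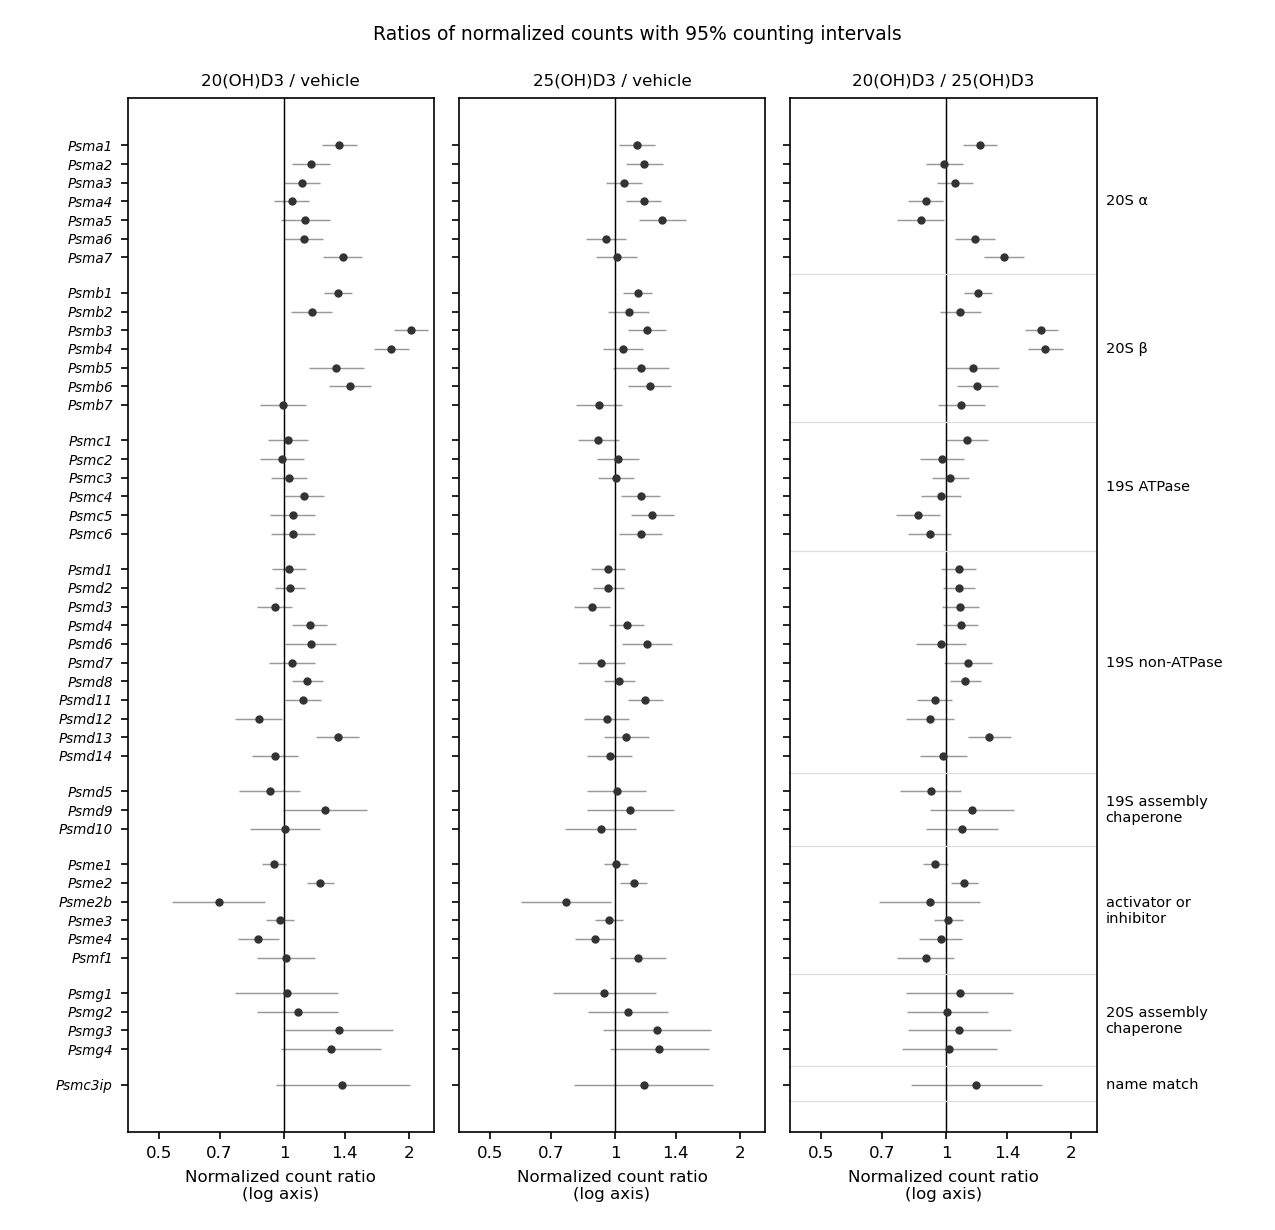
Normalized count ratio (log axis) of each of the 45 member rows for 20(OH)D3 to vehicle (left), 25(OH)D3 to vehicle (middle) and 20(OH)D3 to 25(OH)D3 (right). Points are ratios of 2 libraries and bars are 95% intervals for counting error only. Psmb3 and Psmb4 stand to the right of the other members in the left and right panels, at 2.02 and 1.81 and at 1.69 and 1.73, and not in the middle panel.

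The ratios moved with transcript length over the whole table. Among rows whose longest coding transcript is at most 900 bases, the median log2 ratio of 20(OH)D3 to vehicle was 0.47, and it was -0.08 above 3000 bases. Proteasome transcripts had a median length of 1440 bases over the 45 member rows, 899 bases for the β and 1201 for the α subunits, and 1819 bases for the 17 cap subunits. With a running median over rows of like length taken off, the members' median log2 ratio of 20(OH)D3 to vehicle became -0.026, with 19 of 45 above 0 (49.9% of all rows). Wherever the length trend is taken off, all rows are the 11773 past the filter that have a coding transcript length. The medians of the α, β and non-ATPase subunits became 0.054, 0.048 and 0.049, and that of the ATPases -0.039. Above the trend by at least 0.32 were 5 member rows, Psmb4 (0.73), Psmb3 (0.56), Psmd9 (0.47), Psmb1 (0.38) and Psmd13 (0.35), or 11.1% of members against 19.1% of all rows. Below it by as much were 4, Psmd12, Psme1, Psme2b and Psmg1, against 12.2% of all rows. Psmb5 (0.05) and Psmb6 (-0.023) came to lie on the trend, and Psmb7 (-0.24) below it. The longest transcript need not be the one expressed, and the trend is higher at shorter lengths. That Psmb1 (1970 bases), Psmd13 (1989 bases) and Psmd9 (2597 bases) stood above the trend by 0.32 therefore depends on this choice of length. So does the α median of 0.054, which is the value of Psma3 (2846 bases). The part of length, and of what sets it, in these ratios was not tested.

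**Figure D3:**
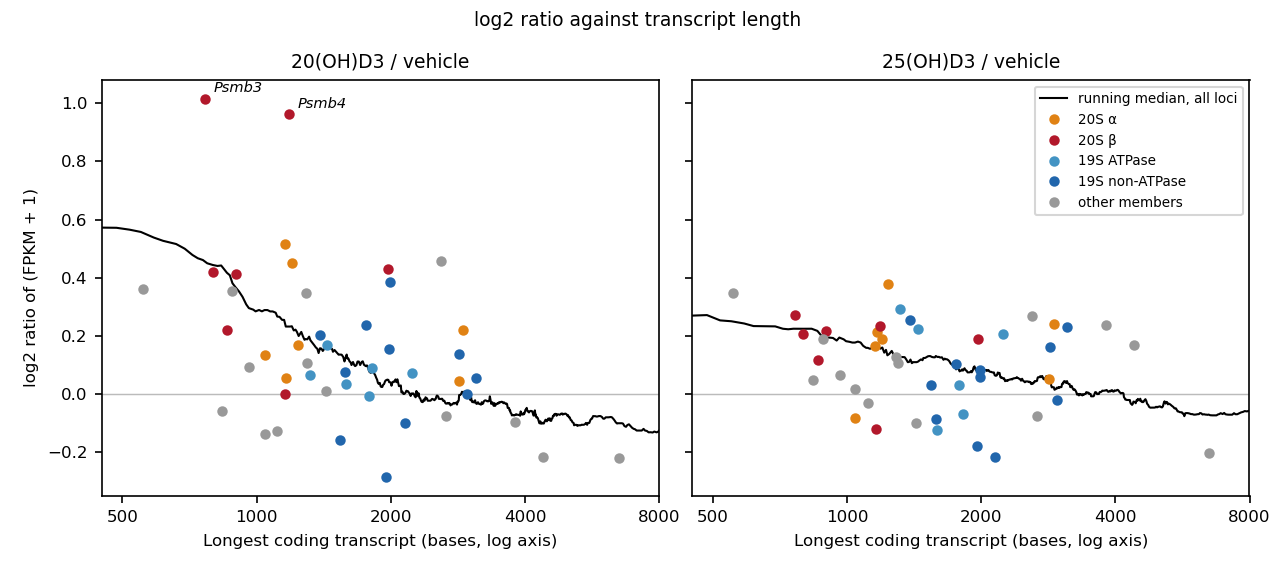
log2 ratio of (FPKM + 1) to vehicle for the 45 member rows against the length of the longest coding transcript (bases, log axis), for 20(OH)D3 (left) and 25(OH)D3 (right), with the running median of all rows as a line. Colours give the role. The line falls with length in both panels, most members lie around it, and Psmb3 and Psmb4 lie above it in the left panel at 1.02 and 0.96.

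Mice given 25(OH)D3 were compared with the same vehicle library as before. As deposited, members stood slightly above vehicle and close together. Of 45 rows 33 were above 0, against 54.8% of all rows, with a median log2 ratio of 0.12 against 0.03 (-0.04 against -0.12 in TPM). Higher by at least 0.32 were 2 member rows, or 4.44%, against 14.5% of all rows, and 0 were lower by as much, against 9.29%. The SD over members was 0.15, against 0.45 over all rows. Here α and β subunits did not part, with medians of 0.19 and 0.20 (0.03 and 0.05 in TPM) and summed count ratios of 1.10 (1.06 to 1.15) and 1.11 (1.06 to 1.15).

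By FPKM the member furthest above vehicle was Psma5, an α subunit, at 43.1 FPKM in the vehicle, 48.6 FPKM in the 20(OH)D3 and 56.3 FPKM in the 25(OH)D3 library (423, 426 and 512 reads). It was highest in the 25(OH)D3 library, with a count ratio to vehicle of 1.30 (1.14 to 1.48). Psmg4 followed with a count ratio of 1.28 (0.970 to 1.68) on 100 and 119 reads, and then the ATPase Psmc5 (49.4, 51.7 and 60.7 FPKM; 522, 490 and 598 reads) with 1.23 (1.09 to 1.38). Psmb3 had a ratio of 1.19 (1.08 to 1.33) and Psmb4 one of 1.05 (0.937 to 1.17). By FPKM the lowest were Psmd3 (50.9, 47.4 and 43.7 FPKM; count ratio 0.880, 0.798 to 0.970), Psme4 (0.895, 0.800 to 1.00) and Psmd12 (0.954, 0.841 to 1.08). By counts the lowest was the shared row of Psme2b and 9930111J21Rik1 at 0.763 (0.594 to 0.977). No cutting subunit was apart by 0.32, with count ratios of 1.16 (0.991 to 1.35) for Psmb5, 1.21 (1.08 to 1.37) for Psmb6 and 0.914 (0.804 to 1.04) for Psmb7. After the length trend was taken off, 21 of 45 rows lay above 0 and none was apart by 0.32 in either direction, against 49.9% of all rows above 0, 9.61% higher and 8.53% lower on the same measure.

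The third comparison set the compounds side by side at equal dose and time, with libraries that the first 2 comparisons also used. All 7 β subunits were higher with 20(OH)D3, with a median log2 ratio of 0.22 (0.18 in TPM) and a summed count ratio of 1.32 (1.27 to 1.37). With the length trend taken off, their median was 0.023 with 5 of 7 above 0. As deposited, the α subunits had a median of -0.01 with 3 of 7 above 0, and the ATPases one of -0.05 with 2 of 6 above 0. With the length trend taken off, these medians were 0.029 with 4 of 7 above 0 and -0.063 with 2 of 6 above 0. The higher median of the β than of the α subunits was therefore not kept. Over all members as deposited, 24 of 45 were above 0, against 47.4% of all rows, and the median was 0.02, against -0.02. Higher by at least 0.32 were 3 member rows (19.4% of all rows) and lower by as much were 2 (17.5% of all rows). In TPM the members' median was -0.01 and that of all rows -0.05.

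The 3 higher ones were Psmb3, with a count ratio of 1.69 (1.54 to 1.86), Psmb4, with 1.73 (1.57 to 1.91), and Psma7, with 1.37 (1.23 to 1.54). Psmd13 had a ratio of 1.27 (1.13 to 1.43). The members lower by FPKM were Psmd5 (11.9 FPKM with 20(OH)D3 and 15.8 FPKM with 25(OH)D3) and Psmf1 (17.7 and 22.5 FPKM). Counts set these closer, at 0.916 (0.773 to 1.09) and 0.892 (0.761 to 1.04), and both intervals hold 1. Members were not counted by whether the interval left out 1, since no share over all rows was at hand for that rule. Intervals wholly below 1 were those of Psmc5 at 0.855 (0.757 to 0.965), Psma5 at 0.868 (0.761 to 0.989) and Psma4 at 0.892 (0.809 to 0.982). The ratio of Psmb5 was 1.16 (0.998 to 1.34), that of Psmb6 1.19 (1.06 to 1.33) and that of Psmb7 1.09 (0.953 to 1.24).

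Immune subunits exceeded their constitutive counterparts in FPKM in most pairs. Psmb8, the counterpart of Psmb5, stood at 268, 396 and 274 FPKM in the vehicle, 20(OH)D3 and 25(OH)D3 libraries. It was 5.32, 5.87 and 4.68 times Psmb5. Psmb10, the counterpart of Psmb7, stood at 131, 133 and 141 FPKM and was 2.27, 2.32 and 2.67 times Psmb7. Psmb9, the counterpart of Psmb6, stood at 109.5, 114.9 and 116.5 FPKM and was 1.23, 0.958 and 1.13 times Psmb6. This pair was near parity, and by deposited FPKM its order turned in the 20(OH)D3 library. With the length trend taken off, the log2 ratio of 20(OH)D3 to vehicle was -0.023 for Psmb6 (798 bases). The 3 immune subunits (1311 to 1628 bases) had a median of -0.098 on that measure. The part of length in this turn was not tested. The count ratio of 20(OH)D3 to vehicle was 1.38 (1.31 to 1.46) for Psmb8, 1.15 (1.06 to 1.247) for Psmb9 and 1.11 (1.00 to 1.23) for Psmb10. That of 25(OH)D3 to vehicle was 0.998 (0.941 to 1.06), 1.06 (0.975 to 1.15) and 1.07 (0.964 to 1.18). Of the immune subunits Psmb8 thus stood furthest from vehicle with 20(OH)D3.

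**Figure D4:**
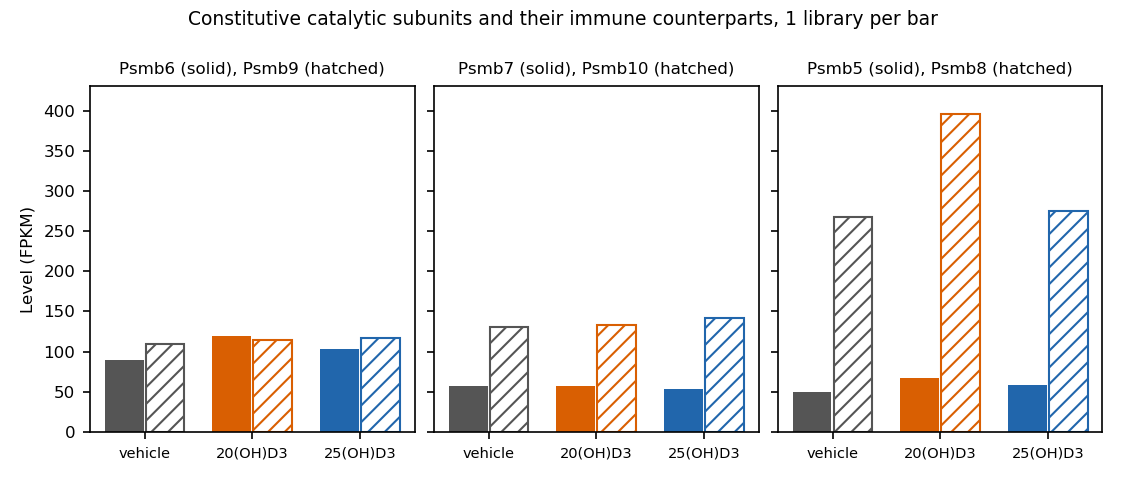
Level (FPKM) of the constitutive cutting subunits (solid bars) and their immune counterparts (hatched bars) in the 3 libraries, with 1 library per bar and no error bar. Psmb8 exceeds Psmb5 by 4.68 to 5.87 times in every library, Psmb10 exceeds Psmb7 by 2.27 to 2.67 times, and Psmb9 and Psmb6 are of similar height.

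Genes around the proteasome, from lists of functional partners, mostly stood near vehicle as deposited, and TPM lowers every ratio to vehicle by about the shift given for all rows. Of 15 partner and shuttle genes found, 8 were above 0 with 20(OH)D3 (median log2 ratio 0.01), against 49.0% of all rows. With 25(OH)D3 5 were above 0 (median -0.01), against 54.8% of all rows. Shfm1, which encodes a small cap subunit with no Psm symbol, was the highest, at 42.2, 63.2 and 48.2 FPKM in the vehicle, 20(OH)D3 and 25(OH)D3 libraries, a count ratio to vehicle of 1.50 (1.33 to 1.68) with 20(OH)D3. Vcp, the segregase that pulls substrates out for degradation, was lowest at 0.888 (0.832 to 0.948). Regulators had a median of 0.06 with 20(OH)D3 and by FPKM ran from Syvn1 (log2 ratio -0.12), a ubiquitin ligase that acts on the precursor of NFE2L1, to Akirin2 (0.29), a factor for nuclear import of proteasomes. By counts the lowest was the row of Ddi2 and Rsc1a1 at 0.850 (0.766 to 0.942). Among ubiquitin and E1 genes Rps27a, a fusion of ubiquitin and a ribosomal protein, stood at 705, 1339.8 and 774 FPKM (ratio 1.84, 1.76 to 1.92), and Uba1, the main ubiquitin-activating enzyme, was lowest at 0.846 (0.799 to 0.895).

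Other protein complexes gave different medians in the same libraries, with no test of the difference possible. The median log2 ratio of 20(OH)D3 to vehicle was 0.09 for the 45 proteasome rows, -0.15 for 8 rows of the CCT chaperonin, 0.15 for 87 rows of cytosolic ribosomal proteins and 0.65 for 82 rows of nuclear respiratory chain subunits. For 25(OH)D3 it was 0.12, 0.08, 0.13 and 0.43 in the same order. With the length trend taken off, the values for 20(OH)D3 were -0.026, -0.13, -0.16 and 0.32, and those for 25(OH)D3 were -0.0005, -0.0043, -0.040 and 0.28. The proteasome thus lay between the chaperonin and the respiratory chain for 20(OH)D3 on both measures.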

How the data were processed

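The submitters' processing notes name the build GRCm38 and the tools Cuffnorm, Cuffdiff, Cufflinks 2.2.1 and STAR 2.7.0c. The sources used here do not say what each did, which annotation release served or whether counting used strand. The authors deposited FPKM values and a normalized count signal for 46951 rows, as the column names state. The deposited signal was divided by 1 factor per library (0.938, 1.05 and 1.01), and 99.9% of the rows with reads then lay within 0.02 of a whole number (called reads here); the 25(OH)D3 factor is so near 1 that this is less sure there. The table's starts count from 0, since adding 1 gave the GENCODE M21 start for 25120 of 28184 rows with the same end, and coordinates printed count from 1.

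Ratios are log2 of (FPKM + 1) for rows with a mean of at least 1 FPKM. This scale understates ratios of low genes. Normalized count ratios carry exact Clopper-Pearson intervals conditional on the summed reads; they cover counting error only, since no molecular identifiers are described and reads may be copies of 1 molecule. No count model was fitted, since 1 library per group leaves no spread. Members, lists and roles were chosen with earlier results of these data known. Every member could be named; full values were given for the 3 highest and 3 lowest of each comparison, the cutting subunits and the extremes of each role, and others were chosen after their values were seen. The functions were tested on simulated libraries. Lengths were the longest coding transcripts of GENCODE M21, found for 48 of 48 member rows. Python 3.11.15, pandas 2.3.3 and scipy 1.17.1 were used. Alternatives were pseudocounts of 0.1 and 5 FPKM, no filter or a mean of 5 FPKM, TPM, median of ratios, normalized counts with a pseudocount of 10, and leaving out rows with more than 1 symbol. Taking off the length trend was added after the data were seen. Of the table's lines 2 were empty. Of 4 skeletal muscle markers 3 were found, Myh4 was listed at 0 in every library, and the list summed to 9.18, 2.23 and 15.5 FPKM in the vehicle, 20(OH)D3 and 25(OH)D3 libraries. Plasma cell markers summed to 112, 145 and 92.5 FPKM and proliferation markers to 49.6, 38.0 and 46.8 FPKM.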

Additional observations from a re-analysis of the deposited data

How the results depend on the processing

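No paired analysis was possible because each group has 1 library. Under both pseudocounts, both filters, the median of ratios, normalized counts and leaving out rows of more than 1 symbol, the members' median log2 ratio ran from 0.089 to 0.14 (20(OH)D3 against vehicle), 0.086 to 0.12 (25(OH)D3 against vehicle) and 0.019 to 0.096 (between the compounds). For 20(OH)D3 against vehicle, rescaling to TPM gave a median of -0.10 with 16 of 45 rows above 0 (32.4% of all rows), 3 higher by at least 0.32 (15.0%) and 5 lower (34.5%). Taking off the length trend, chosen after seeing the data, gave -0.026, with 19 above 0 (49.9% of all rows), 5 higher (19.1%) and 4 lower (12.2%). It took 13 member rows from above to below 0, among them 3 that had stood at least 0.32 above vehicle, Psmb6 (-0.023), Psmg4 (-0.19) and Psmg3 (-0.021). For 25(OH)D3 against vehicle, TPM gave 21 rows above 0 (32.2% of all rows), 0 higher (8.69%) and 3 lower (20.8%), the length trend 21 above 0 (49.9%) and 0 higher (9.61%), and a pseudocount of 5 FPKM 1 higher. Normalized counts gave 1 row lower in each comparison with vehicle. Between the compounds, the number lower was 0 with a pseudocount of 5 FPKM and on normalized counts, and 1 by the median of ratios and with the length trend off. The causes were not tested. Counting error is widest for members with few reads, such as Psmc3ip (0.955 to 2.01) and Psmg3 (1.01 to 1.83) for 20(OH)D3 to vehicle.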

Other observations

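The rows beside Psmb3 and Psmb4 on the chromosome did not share their pattern throughout. Among rows with a mean of at least 5 FPKM, Pip4k2b lies 1656 bases from Psmb3 and had a count ratio of 20(OH)D3 to vehicle of 0.925 (0.845 to 1.01), and Pcgf2, at 2901 bases on the other side, had 1.33 (0.987 to 1.80) on 84 and 100 reads. Pogz lies 1766 bases from Psmb4 and had a ratio of 0.778 (0.693 to 0.874). Selenbp1, a selenium-binding protein gene 46094 bases away on the other side, had 2.23 (1.82 to 2.75) on 141 and 281 reads.

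Pseudogene rows left out of the members held few reads. Psmb6-ps2 had 0, 3 and 1 reads in the vehicle, 20(OH)D3 and 25(OH)D3 libraries, Psmb5-ps had 0, 1 and 0, and the row of Gm6787 and Psmb7-ps2 had 3, 0 and 2. Some members had FPKM and count ratios that parted. Psma7 stood at 92.0 and 103 FPKM in the vehicle and 25(OH)D3 libraries with a count ratio of 1.01 (0.897 to 1.13), and Psmd1, in its shared row, at 30.6 and 36.1 FPKM with a count ratio of 0.960 (0.874 to 1.06).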
